A study of Mus musculus with 6 samples.

Results

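The serpins are a family of protease inhibitors that share one fold. Its members in the deposited table were taken as the protein-coding genes whose symbol is Serpin, a clade letter from a to i and a number, without use of any measured value. This rule gave 61 of the 54532 genes in the table: 24 of clade A, 26 of clade B, 3 of clade E, 2 each of clades F and I, and 1 each of clades C, D, G and H. Of the 61 members, 46 had at least 1 read and 31 had enough reads to be tested.

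The study sequenced RNA from the injured lobe of mouse liver after warm ischemia and reperfusion, an injury made by stopping and then restoring blood flow. The WT group is wild type C57BL/6 mice (3 libraries: WT-14, then WT-44, then WT-77). The IRF8-cKO group is C57BL/6 mice in which IRF8, an interferon regulatory transcription factor, is deleted in hepatocytes (3 libraries: IRF8-cKO-71, then IRF8-cKO-88, then IRF8-cKO-106). Values by library are given in these orders. All 6 libraries had 1 h of ischemia and 12 h of reperfusion, so there is no uninjured group. The promoter that drives the deletion, the deleted part of the gene, and the age of the animals are not stated in the labels. The labels do not say that each library is a separate animal, so p-values reflect how much these samples vary, which may be technical.

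A serpin works as a bait. It presents an exposed stretch near its carboxyl end, the reactive centre loop, to a protease; cleavage of the loop lets it insert into the body of the serpin and drags the covalently bound protease into a distorted, inactive complex. The bases that encode the loop therefore set which protease is caught. Hepatocytes secrete much of the serpin content of plasma: alpha-1-antitrypsin, antithrombin, heparin cofactor II, alpha-2-antiplasmin and C1 inhibitor. Some members inhibit nothing and instead carry hormones in blood or assist collagen folding, and clade B serpins act inside cells.

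The loop sequences are shown because 5 of the most highly expressed members, Serpina1a to Serpina1e, are near-identical copies of the alpha-1-antitrypsin gene whose loops differ more than their coding sequence as a whole. Over 1239 aligned coding bases, pairs were 96.29% to 98.47% identical, whereas 15 of the 66 loop bases differed among the copies (22.73%), with 4 to 10 differences between any pair. The loops below are coding strand, 5′ to 3′, from the GENCODE M21 transcripts, and capitals mark the positions at which the 5 copies are not all the same.
Serpina1a: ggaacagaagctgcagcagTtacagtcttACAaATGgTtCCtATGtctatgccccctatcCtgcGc
Serpina1b: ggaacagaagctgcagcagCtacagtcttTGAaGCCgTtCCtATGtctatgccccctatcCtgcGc
Serpina1c: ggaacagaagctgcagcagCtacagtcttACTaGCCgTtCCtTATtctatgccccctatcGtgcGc
Serpina1d: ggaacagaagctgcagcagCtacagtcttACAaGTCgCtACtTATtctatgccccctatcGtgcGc
Serpina1e: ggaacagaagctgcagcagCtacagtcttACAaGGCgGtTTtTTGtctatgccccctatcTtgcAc

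The 3 most highly expressed members of the Serpina3 group, mouse relatives of alpha-1-antichymotrypsin, have loops that diverge more. Their coding sequences were 83.49% to 91.83% identical. The loops share their first 23 bases, and capitals mark the bases after that shared start, where the lengths also differ.
Serpina3k: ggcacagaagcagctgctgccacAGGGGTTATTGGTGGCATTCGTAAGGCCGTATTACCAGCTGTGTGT
Serpina3m: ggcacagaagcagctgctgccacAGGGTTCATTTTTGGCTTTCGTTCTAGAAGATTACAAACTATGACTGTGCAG
Serpina3n: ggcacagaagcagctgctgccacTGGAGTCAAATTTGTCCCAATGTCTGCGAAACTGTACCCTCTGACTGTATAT

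The 5 Serpina1 copies also share a stretch of their promoters. A run of 59 bases was identical in all 5 RefSeq promoters (GRCm38.p6, chromosome 12, minus strand; for Serpina1e at chr12:103956956-103957014), and its first base lay 55 to 117 bases before the annotated start. In it, capitals mark GTTAAT, the half-site of hepatocyte nuclear factor 1, a factor that is known to drive antitrypsin genes in liver.
Serpina1a to Serpina1e: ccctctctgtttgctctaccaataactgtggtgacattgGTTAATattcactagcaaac

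Counted on both strands of windows of 300 bases, GTTAAT occurred in 7.10% of all 32851 RefSeq promoter entries and in 12 of the 61 entries (19.7%) of the 52 members that have one. The letters TTGCNNAA (C/EBP) were in 10.8% of all entries and 17 of the members' entries (27.9%). The letters TTCNNNGAA (STAT) were in 8.30% and 11 entries (18.0%), and ACANNNTGT (glucocorticoid receptor core) in 6.85% and 11 entries (18.0%). These entries include members with too few reads to test, and the GTTAAT entries include the Serpina1 copies with their shared run. The first listed entries of Serpina1a to Serpina1e, Serpina3n, Serpind1, Serpinc1 and Serpinf1 held no TTCNNNGAA. Among them, ACANNNTGT occurred in Serpina1a and Serpina3n. The 4 motifs can overlap, neighbouring entries share sequence, and a match is a run of letters rather than a bound site. Serpina10, Serpina3k, Serpina3m, Serpina6, Serpina9, Serpinb13, Serpinb1a and Serping1 are among those with no entry.

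Library totals were 14758237 to 16805830 counted reads. Irf8 (chromosome 8, 120736358 to 120756694) had 152, 110 and 155 reads in WT, and 92, 109 and 90 in IRF8-cKO. As CPM, read counts divided by a library size that edgeR adjusts with TMM scaling factors, this was 9.70 ± 0.523 (SD, n = 3) in WT and 5.52 ± 1.28 (SD, n = 3) in IRF8-cKO, with no overlap. The log2 fold change of IRF8-cKO against WT (log2FC) was -0.81 (SE 0.33, adjusted p = 0.174, edgeR). The exact two-sided permutation p was 0.1, the smallest that 3 against 3 can give, which the lack of overlap fixes in advance. Irf8 is also expressed by myeloid cells and lymphocytes, which are part of this tissue. The 7 hepatocyte markers tested dominated every library, with a summed level of 76315 to 115676 CPM in WT and 60475 to 73012 CPM in IRF8-cKO, and none of them passed the test. The 9 neutrophil markers tested summed to 187 to 230 CPM in WT and 25.1 to 55.3 CPM in IRF8-cKO, all 9 were lower and 5 passed. Over all genes tested, 48.5% had a negative log2FC and 0.937% passed as lower. Of the 5, Ltf (0.0617, 0.123 and 0.0927 CPM) and Ngp (0, 1.23 and 0.278 CPM) were near the floor in IRF8-cKO. Their place among the genes tested leaned on WT. Cholangiocyte markers (6 tested, all lower, none passing) summed to 456 to 937 CPM in WT and 129 to 250 CPM in IRF8-cKO. Most of that sum was Spp1 alone, at 855, 408 and 430 CPM in WT and 116, 209 and 198 CPM in IRF8-cKO. Platelet and erythroid markers (8 tested, all lower, 1 passing) summed to 232 to 333 and 105 to 157 CPM. Kupffer cell markers (6 tested, all higher, none passing) summed to 69.2 to 84.8 and 80.8 to 243 CPM. Of the markers tested for monocytes and macrophages (6), endothelial cells (7), stellate cells and fibroblasts (8), T and NK cells (2) and mast cells (1), none passed. Levels in bulk tissue cannot tell fewer cells of a type from less RNA per cell.

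Serpin transcripts took 3.99, 3.57 and 3.66% of all counts in WT, and 4.91, 4.29 and 3.95% in IRF8-cKO. The groups overlapped, since WT-14 lay above IRF8-cKO-106. The means were 3.74 ± 0.221% (SD, n = 3) in WT and 4.38 ± 0.484% (SD, n = 3) in IRF8-cKO. Most of these reads came from 2 sets of clade A genes on chromosome 12, whose shares differed in opposite directions. Serpina1a to Serpina1e took 1.41, 1.65 and 1.66% in WT and 1.12, 1.22 and 1.40% in IRF8-cKO. The Serpina3 genes took 2.19, 1.58 and 1.61% in WT and 3.29, 2.73 and 2.23% in IRF8-cKO. Neither of these unscaled shares overlapped between the groups, although WT-14 lay within 0.1 percentage points of IRF8-cKO-106 in both. Alb, the albumin gene, took 6.62, 6.96 and 6.70% in WT and 4.53, 5.83 and 6.59% in IRF8-cKO.

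**Figure D1:**
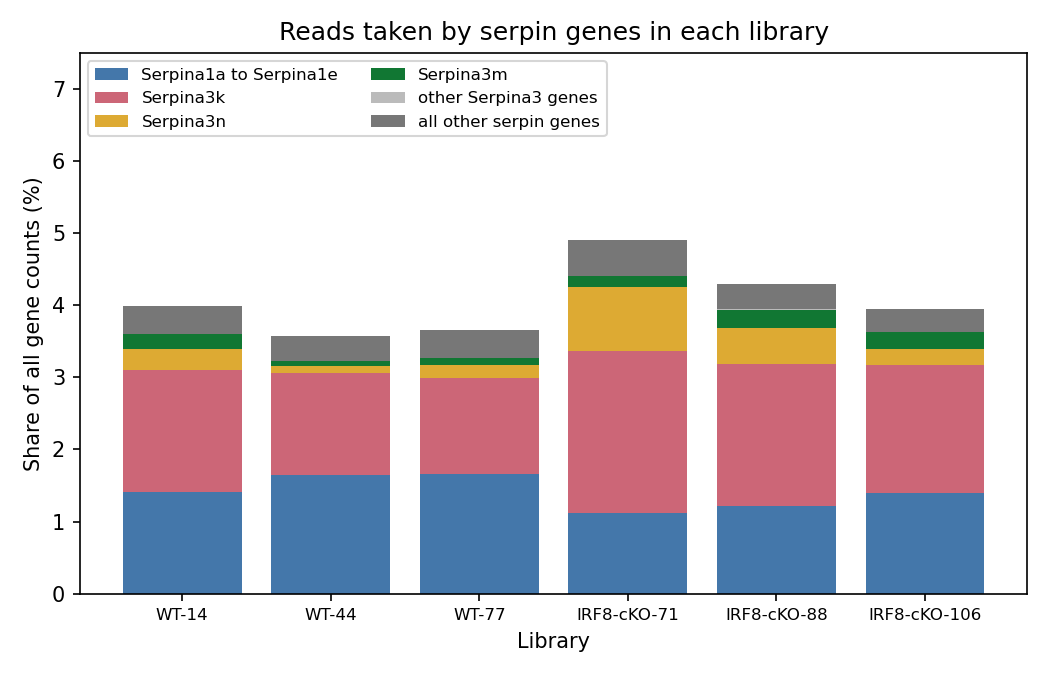
Stacked bars give the percentage of all gene counts in each of the 6 libraries that came from serpin genes, split into the 5 Serpina1 copies, Serpina3k, Serpina3n, Serpina3m, the other Serpina3 genes and all other serpins. The Serpina1 layer is 1.41 to 1.66% in WT and 1.12 to 1.40% in IRF8-cKO, and Serpina3k is the largest single layer in 4 of the 6 libraries.

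Per kilobase of gene length, which allows genes to be compared, Serpina3k was the most abundant serpin at a mean of 8481 CPM per kilobase over the 6 libraries. Serpina1e followed at 3709, Serpina3n at 1761, Serpina1b at 1631, Serpina1a at 1137, Serpina1d at 1040, Serpina3m at 927 and Serpina1c at 685 CPM per kilobase. Serpina3n and Serpina1b exchange places when the longest coding transcript is used as the length (1761 and 2235). The Serpina1 copies share much of their sequence, and how reads with several matches were handled is not stated. Their levels, their order and their rank against other serpins may depend on that rule. Serpina1a and Serpina1d did not differ beyond their spread, at 1374 ± 429 and 1180 ± 155 CPM per kilobase in WT (SD, n = 3). Below these came Serping1 (293), Serpinf2 (209), Serpinf1 (184) and Serpinc1 (152). The Serpinc1 value rests on a deposited length of 8546 bases and becomes 261 CPM per kilobase with its coding transcript of 4970 bases. By deposited length the 5 clade B members tested were all below 3 CPM per kilobase (Serpinb6a is at 8.34 by its coding transcript), with Serpinb8 at 0.223, but clade A Serpina9 (0.226) was about as scarce.

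**Figure D2:**
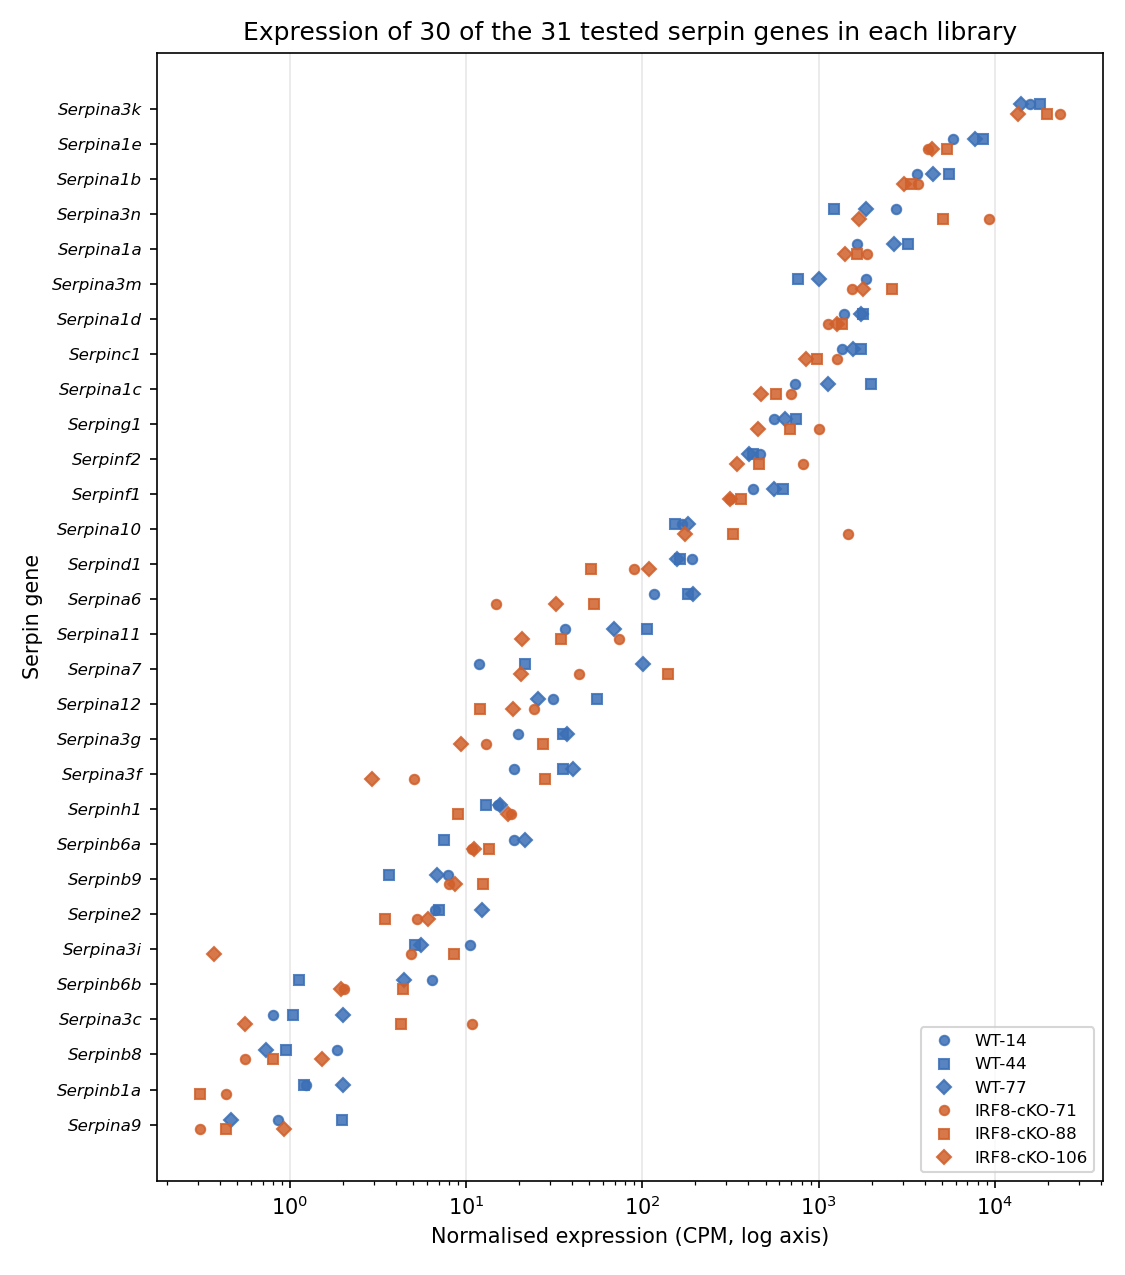
Points give the expression of 30 of the 31 tested serpin genes in each library, in CPM on a log axis that is not divided by gene length, with WT in blue and IRF8-cKO in orange. Serpina3k is highest at 13503 to 23304 CPM, and the points of Serpina10 and Serpina3c spread widely within IRF8-cKO; the IRF8-cKO-106 value of Serpinb1a is 0 and has no point.

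Of the 31 members tested, 1 passed the test between the groups at an adjusted p under 0.05 (edgeR's quasi-likelihood test with Benjamini-Hochberg adjustment over 13134 genes). This was Serpina6, lower in IRF8-cKO. In the background, 1.39% of all genes tested passed, 0.449% as higher and 0.937% as lower. At an unadjusted p under 0.05, 9 members counted (3 higher and 6 lower), beside 24.1% of all genes. For 11 members the groups had CPM ranges apart, 10 lower and 1 higher, beside 28.9% of all genes (14.5% lower and 14.4% higher). The fold change was negative for 21 of the 31 members and for 48.5% of all genes tested. Serpina1a to Serpina1e, all negative, are near-identical copies that may share reads, so these counts and medians do not rest on independent members. The median log2 fold change was -0.53 over the members and 0.03 over all genes. Within the family it was -0.62 over the 18 clade A genes tested and -0.44 over the 5 of clade B. The filter on low counts was met in all 6 libraries by 27 of the 31. Serpinb1a, Serpina3i and Serpinb8 met it in 3 WT libraries and in fewer IRF8-cKO libraries, so their entry leaned on WT. Serpinb1a is among the 10 members that were apart and lower.

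**Figure D3:**
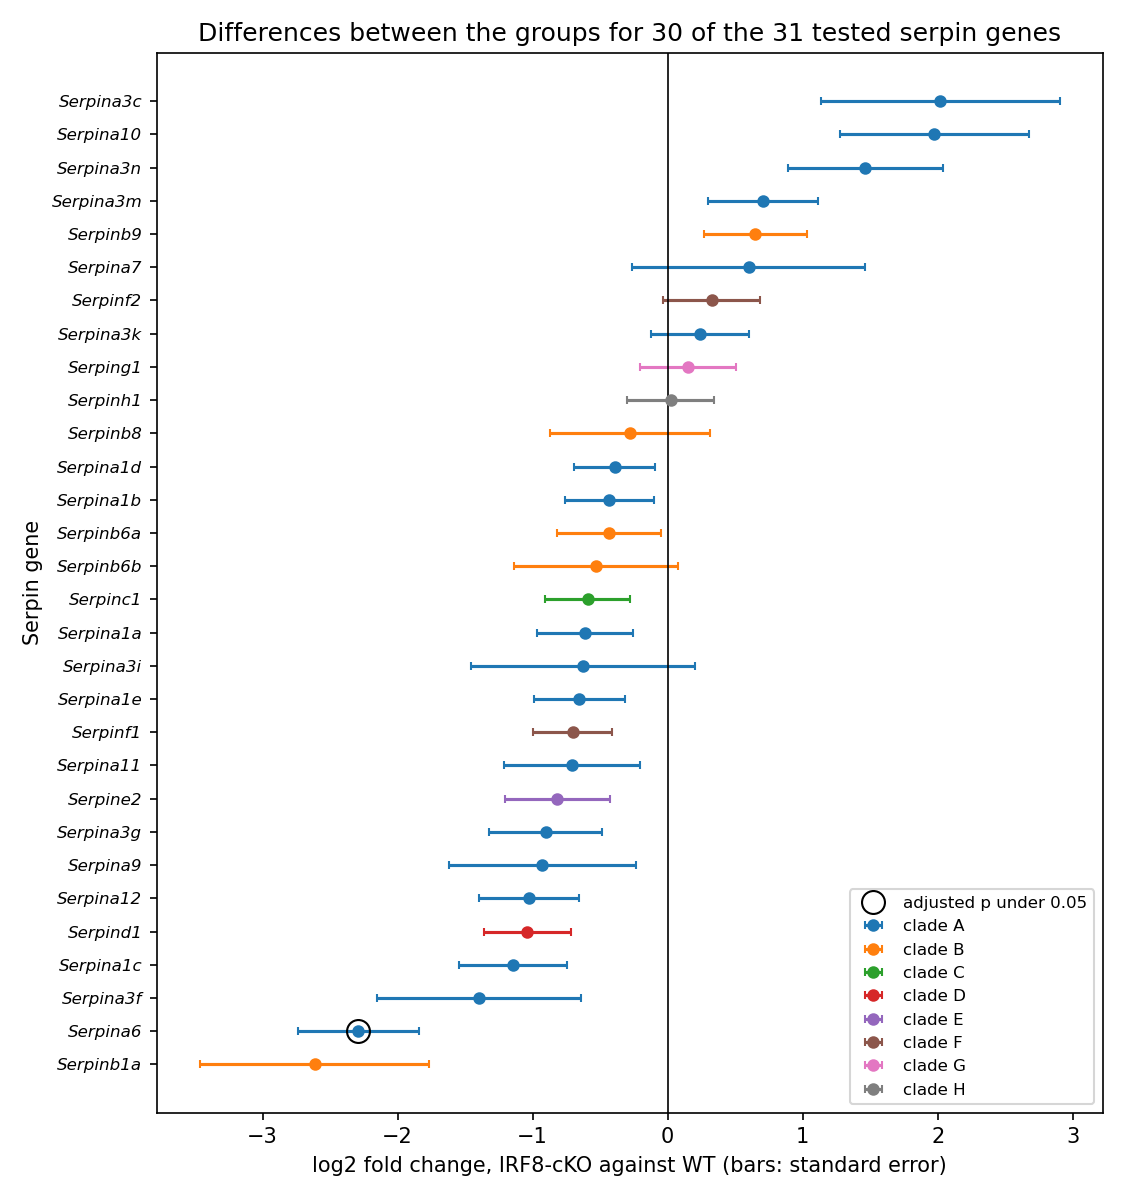
Points give the log2 fold change of IRF8-cKO against WT for 30 of the 31 tested serpin genes, with bars for the standard error and colours for the clade. Serpinb1a (-2.61) and Serpina6 (-2.29) are lowest, Serpina3c (2.02) and Serpina10 (1.98) are highest, and of these Serpina6 passed the test.

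The hormone carriers come first. Serpina6 (chromosome 12, 103646630 to 103657212) encodes corticosteroid-binding globulin, the plasma carrier of glucocorticoids, which inhibits no protease. It measured 116, 182 and 194 CPM in WT, and 14.8, 53.4 and 32.3 CPM in IRF8-cKO. Every IRF8-cKO library lay below every WT library, and the lowest WT value was above the highest IRF8-cKO value by more than the SD of either group. The means were 164 ± 42.3 and 33.5 ± 19.3 CPM (SD, n = 3), a 4.89-fold lower level (log2FC -2.29, SE 0.45, adjusted p = 0.0446, edgeR). The fold change was -2.79 to -1.93 with any 1 library left out, but the call was lost without WT-14 (adjusted p = 0.0532), WT-44 (0.187), WT-77 (0.201) or IRF8-cKO-106 (0.113). The call was also lost with library totals as the scaling (0.0550). In all, 139 genes passed without WT-14, 1 without WT-44, 0 without WT-77 and 20 without IRF8-cKO-106. Loss of a call in the fits with few passing genes is not particular to Serpina6. None of its windows of 100 bases occurs in the transcripts of another gene.

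Serpina7 (chromosome X) encodes thyroxine-binding globulin, the other hormone carrier. It measured 11.8, 21.5 and 101 CPM in WT and 43.8, 139 and 20.6 CPM in IRF8-cKO. The groups overlapped and each spanned a wide range, 8.52-fold within WT and 6.76-fold within IRF8-cKO. The log2 fold change of 0.60 was smaller than its SE of 0.87 (adjusted p = 0.705, edgeR), and the log2FC was 2.02 without WT-77 and -0.48 without IRF8-cKO-88.

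The Serpina1 copies encode alpha-1-antitrypsin, the main plasma inhibitor of neutrophil elastase, and their products differ in target through the loops printed above. All 5 had a negative fold change and none passed the test. Serpina1e, the copy with the most counted reads, measured 5808, 8519 and 7681 CPM in WT and 4200, 5351 and 4429 CPM in IRF8-cKO. The groups did not overlap (log2FC -0.65, SE 0.34, adjusted p = 0.257, edgeR). Serpina1d measured 1399, 1798 and 1739 CPM in WT and 1132, 1354 and 1276 CPM in IRF8-cKO. Here too the groups did not overlap, though WT-14 and IRF8-cKO-88 were close (log2FC -0.39, SE 0.30, adjusted p = 0.442). Serpina1c measured 737, 1978 and 1134 CPM in WT and 698, 570 and 472 CPM in IRF8-cKO. The groups did not overlap, WT-44 stood high and WT-14 lay close to IRF8-cKO-71 (log2FC -1.14, SE 0.40, adjusted p = 0.133).

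The remaining copies overlapped between the groups. Serpina1b measured 3601, 5517 and 4454 CPM in WT and 3655, 3355 and 3051 CPM in IRF8-cKO (log2FC -0.43, SE 0.33, adjusted p = 0.438, edgeR). Serpina1a measured 1660, 3205 and 2688 CPM in WT and 1878, 1662 and 1404 CPM in IRF8-cKO (log2FC -0.61, SE 0.35, adjusted p = 0.309). In both, WT-14 lay inside the IRF8-cKO range. If reads with several matches were divided among the copies, their sum is firmer than each copy. If such reads were dropped, the sum lacks them too, and the rule is not stated. The difference between the group means of log2 summed CPM was -0.57, and -0.75 to -0.42 with any 1 library left out. That range does not cover a change of scaling. The mean summed CPM was 17306 in WT and 11496 in IRF8-cKO, while the mean unscaled shares, 1.58% and 1.24%, lay relatively closer together. Of the windows of 100 bases in their transcripts, 69.3% for Serpina1c, 49.9% for Serpina1a, 29.3% for Serpina1d, 20.6% for Serpina1b and 14.8% for Serpina1e also occur in another gene. Serpina1c in addition shares 31.5% of its exonic bases with B430119L08Rik on the opposite strand. Serpina1e gave 36.3% or more of the Serpina1 reads in every library, and Serpina1c gave 5.58 to 9.41% in WT and 4.44 to 6.04% in IRF8-cKO.

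The Serpina3 group is expanded in mouse from a single alpha-1-antichymotrypsin ancestor. Serpina3k, the most abundant serpin, encodes a kallikrein-binding inhibitor. It measured 15789, 18055 and 14179 CPM in WT and 23304, 19847 and 13503 CPM in IRF8-cKO. The groups overlapped because IRF8-cKO-106 was the lowest of all 6 (log2FC 0.24, SE 0.36, adjusted p = 0.719, edgeR). As an unscaled share of counts it was 1.69, 1.42 and 1.33% in WT and 2.25, 1.96 and 1.78% in IRF8-cKO, without overlap. The scaling factor of IRF8-cKO-106, 1.32, was the highest of the 6, so its CPM are lower than its share.

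Serpina3n is an acute-phase inhibitor with cathepsin G and granzyme B among its known targets. It measured 2734, 1217 and 1847 CPM in WT and 9232, 5080 and 1696 CPM in IRF8-cKO. IRF8-cKO-71 and IRF8-cKO-88 stood above every WT library and IRF8-cKO-106 lay inside the WT range. The log2 fold change was 1.47 (SE 0.57, adjusted p = 0.164, edgeR), and 0.82 without IRF8-cKO-71. Serpina3m measured 1852, 766 and 1012 CPM in WT and 1545, 2599 and 1784 CPM in IRF8-cKO. Here WT-14 exceeded 2 of the 3 IRF8-cKO libraries (log2FC 0.71, SE 0.41, adjusted p = 0.306). Shared windows of 100 bases were few in these genes, 4.85% in Serpina3k, 6.09% in Serpina3m and 0.2% in Serpina3n, and Serpina3k and Serpina3m share a first exon of 60 bases.

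As summed CPM the tested Serpina3 genes reached 20425, 20114 and 17123 in WT and 34115, 27594 and 16996 in IRF8-cKO. On this scale the groups overlapped, with IRF8-cKO-106 the lowest of all 6. The difference between the group means of log2 summed CPM was 0.40, and 0.19 to 0.69 with any 1 library left out.

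The scarcer Serpina3 genes spread in both directions. Serpina3g, an intracellular inhibitor of lysosomal cathepsins known from leukocytes, measured 19.7, 35.3 and 37.3 CPM in WT and 12.9, 27.1 and 9.36 CPM in IRF8-cKO (log2FC -0.90, SE 0.42, adjusted p = 0.217, edgeR). Serpina3f measured 18.6, 35.3 and 40.6 CPM in WT and 5.06, 28.0 and 2.92 CPM in IRF8-cKO (log2FC -1.40, SE 0.76, adjusted p = 0.288). In both genes IRF8-cKO-88 lay among the WT libraries while the other two IRF8-cKO libraries lay below all of them. Without IRF8-cKO-88 both passed the test, Serpina3f at -2.98 (adjusted p = 0.00595) and Serpina3g at -1.47 (adjusted p = 0.0349). In that fit 1205 of 13652 genes passed, beside 182 of 13134 with all 6 libraries, so passing there is less particular to these genes. Serpina3c measured 0.80, 1.04 and 1.99 CPM in WT and 10.9, 4.26 and 0.56 CPM in IRF8-cKO, and its fold change of 2.02 (SE 0.88, adjusted p = 0.204) was 0.90 without IRF8-cKO-71. Serpina3i spanned 23.1-fold within IRF8-cKO (log2FC -0.63, adjusted p = 0.678), and its log2FC was -1.45 without IRF8-cKO-88.

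**Figure D4:**
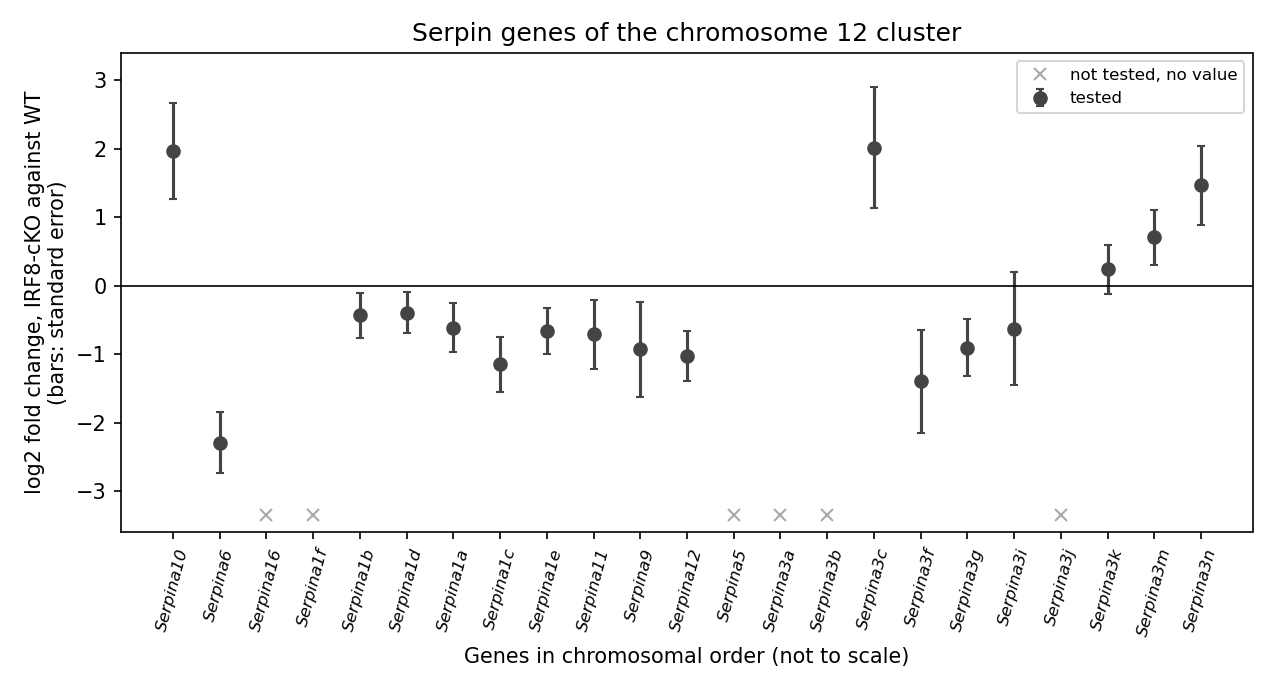
Points give the log2 fold change of IRF8-cKO against WT, with bars for the standard error, for the 23 serpin genes of the chromosome 12 cluster in chromosomal order (not to scale); crosses mark genes with too few reads to test. The 8 tested genes from Serpina1b to Serpina12 all have negative values, and the last 3 genes, Serpina3k, Serpina3m and Serpina3n, all have positive ones.

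The chromosome 12 cluster holds 23 members within 799.5 kb (103614786 to 104414329, mm10), of which 17 were tested. Neighbours did not share a direction throughout. Serpina10 and Serpina6 lie side by side, 15.2 kb apart on the same strand, with log2 fold changes of 1.98 and -2.29. From Serpina1b to Serpina12 the 8 tested genes ranged from -1.14 to -0.39. Among them, Serpina12 encodes vaspin, an adipokine that inhibits kallikrein 7, and measured 31.1, 54.9 and 25.4 CPM in WT and 24.2, 11.9 and 18.5 CPM in IRF8-cKO. The groups did not overlap, and WT-77 lay just above IRF8-cKO-71 (log2FC -1.03, SE 0.37, adjusted p = 0.138, edgeR). Serpina11 overlapped between the groups (log2FC -0.71, SE 0.50, adjusted p = 0.407) and shares 40.8% of its exonic bases with Gm28577 on the same strand. Its log2FC was -1.33 without IRF8-cKO-71. Serpina9, a germinal centre B cell serpin, was scarce at 0.31 to 1.99 CPM (log2FC -0.93, adjusted p = 0.428), with a log2FC of -0.24 without WT-44 and -1.51 without IRF8-cKO-106.

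The serpins of coagulation and fibrinolysis differed among themselves. Serpind1 (chromosome 16, 17331371 to 17343575) encodes heparin cofactor II, a thrombin inhibitor. It measured 191, 163 and 158 CPM in WT and 89.5, 50.8 and 109 CPM in IRF8-cKO. The groups were well apart, with every IRF8-cKO library below every WT library. The means of 171 ± 17.8 and 83.0 ± 29.5 CPM (SD, n = 3) gave a log2FC of -1.04 (SE 0.32, adjusted p = 0.104, edgeR). Serpinc1 encodes antithrombin, the heparin-activated inhibitor of thrombin and factor X. It measured 1360, 1740 and 1571 CPM in WT and 1272, 985 and 843 CPM in IRF8-cKO, again without overlap (log2FC -0.59, SE 0.32, adjusted p = 0.274). For Serpinc1, 34.4% of the exonic bases overlap Zbtb37 on the opposite strand, and the reads of the pair may not be separable.

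Serpina10 encodes the protein Z-dependent protease inhibitor, which acts on activated factor X. It measured 167, 154 and 181 CPM in WT and 1472, 326 and 174 CPM in IRF8-cKO. The WT libraries were within 1.17-fold of each other, while the IRF8-cKO libraries spanned 8.48-fold, from inside the WT range to far above it. The log2 fold change of 1.98 (SE 0.70, adjusted p = 0.142, edgeR) was 0.59 without IRF8-cKO-71. Serpinf2 encodes alpha-2-antiplasmin and measured 465, 423 and 405 CPM in WT and 816, 458 and 346 CPM in IRF8-cKO. Its groups overlapped, with IRF8-cKO-71 high (log2FC 0.33, SE 0.36, adjusted p = 0.604).

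Serpine2, protease nexin 1, an inhibitor of thrombin and uPA, measured 6.68, 6.99 and 12.4 CPM in WT and 5.24, 3.45 and 6.07 CPM in IRF8-cKO. The groups did not overlap, though WT-14 and IRF8-cKO-106 were close (log2FC -0.82, SE 0.39, adjusted p = 0.229).

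Of the remaining secreted serpins, Serpinf1 encodes pigment epithelium-derived factor, which inhibits no protease and acts on angiogenesis and lipid metabolism. It measured 427, 624 and 558 CPM in WT and 312, 362 and 314 CPM in IRF8-cKO. The groups did not overlap and the IRF8-cKO libraries lay within 1.16-fold of each other (log2FC -0.70, SE 0.29, adjusted p = 0.180, edgeR). Serping1 encodes C1 inhibitor, which restrains complement and the contact system. It measured 556, 742 and 641 CPM in WT and 1011, 689 and 451 CPM in IRF8-cKO, with IRF8-cKO libraries on both sides of the WT range (log2FC 0.15, SE 0.35, adjusted p = 0.822). Serpinh1 encodes Hsp47, the collagen chaperone of the endoplasmic reticulum. It measured 15.1, 13.04 and 15.6 CPM in WT and 18.0, 9.01 and 17.4 CPM in IRF8-cKO, on both sides of WT (log2FC 0.02, SE 0.33, adjusted p = 0.974).

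The intracellular clade B serpins were scarce, and 5 of their 26 members could be tested. Serpinb1a (chromosome 13, 32842092 to 32851185) encodes an inhibitor of neutrophil elastase, proteinase 3 and cathepsin G that is abundant in neutrophils. It had 20, 14 and 30 reads in WT and 7, 5 and 0 in IRF8-cKO, and 3 reads in the library with none would be 0.139 CPM. The means were 1.48 ± 0.448 and 0.247 ± 0.222 CPM (SD, n = 3), without overlap (log2FC -2.61, SE 0.85, adjusted p = 0.115, edgeR). The fold change was -3.31 without IRF8-cKO-71 and -1.96 without IRF8-cKO-106. Serpinb1a met the low-count filter in 3 WT and 0 IRF8-cKO libraries, so it was tested through WT and its direction is no further support. The summed neutrophil markers given above differed in the same direction and also without overlap. Their part in the Serpinb1a values was not tested. Serpinb9 encodes an inhibitor of granzyme B and was the single member whose groups were apart with IRF8-cKO higher. It measured 7.91, 3.63 and 6.84 CPM in WT and 7.95, 12.4 and 8.62 CPM in IRF8-cKO, with WT-14 and IRF8-cKO-71 almost equal (log2FC 0.65, SE 0.38, adjusted p = 0.319). Cd8a and Gzmb, the 2 T and NK cell markers tested, summed to 0.490 to 1.38 CPM in WT and 0.834 to 2.28 CPM in IRF8-cKO, and their part in the Serpinb9 values was not tested.

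Serpinb6a, which inhibits cathepsin G, measured 18.6, 7.51 and 21.5 CPM in WT and 10.7, 13.4 and 11.1 CPM in IRF8-cKO. WT-44 lay below all IRF8-cKO libraries and the other two WT libraries lay above them (log2FC -0.44, SE 0.39, adjusted p = 0.507, edgeR). Serpinb6b (-0.53, adjusted p = 0.623) and Serpinb8 (-0.28, adjusted p = 0.803) overlapped between the groups as well. Serpinb6a shares exonic bases with Nqo2 (14.1%), 1110046J04Rik (10.8%) and Ripk1 (4.46%) on the opposite strand, and their reads may not be separable. For the 11 members without overlap the exact two-sided permutation p was 0.1, the smallest possible here. That value follows from the lack of overlap itself and is no further support. Of the 30 members that were not tested, 15 had no read in any library. Of the others, Serpina5 had 61 reads over the 6 libraries, Serpini1, neuroserpin, had 50, Serpina3a had 13, and each of the rest had 6 or fewer. No untested member had more than 29 reads in any 1 library.

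**Figure D5:**
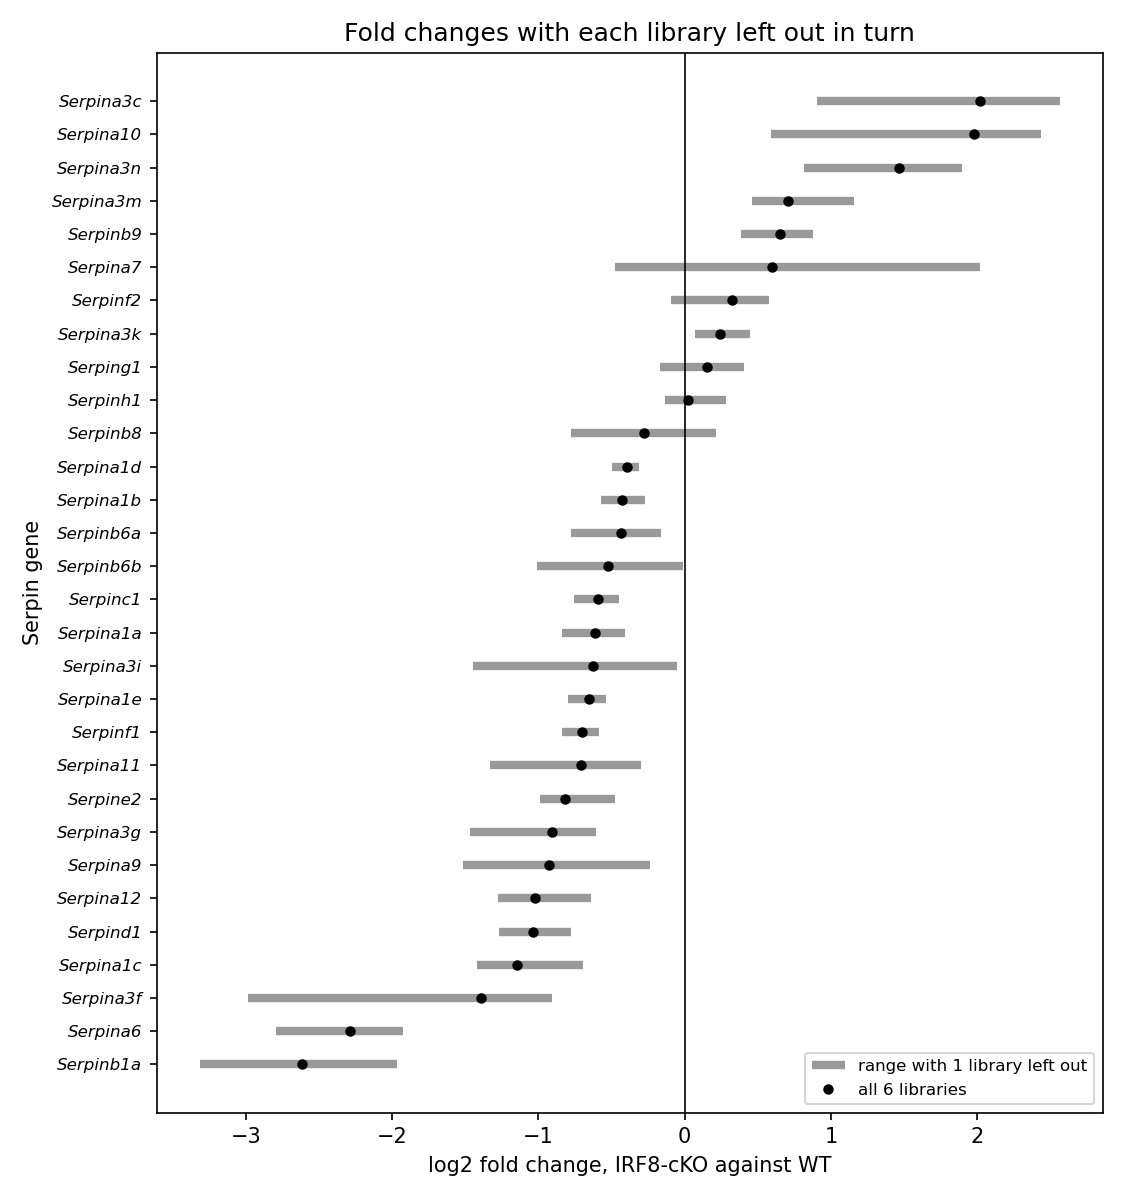
Points give the log2 fold change of 30 of the 31 tested serpin genes with all 6 libraries, and grey bars span the values with each library left out in turn. The bars of Serpina7, Serpinf2, Serping1, Serpinh1 and Serpinb8 cross 0, and that of Serpina7 runs from -0.48 to 2.02.

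The spread within IRF8-cKO accompanied several of these values. The median ratio of the highest to the lowest library was 2.19 in IRF8-cKO and 1.93 in WT over the tested members, and 1.82 and 1.57 over all genes tested. The IRF8-cKO range was the wider one for 17 of the 31 members and for 62.9% of all genes. Serpina10, Serpina3n, Serpina3c, Serpina3k, Serpinf2, Serping1 and Serpinh1 were highest in IRF8-cKO-71, the library that also had the highest summed Kupffer cell markers (243 CPM) and the lowest Alb share (4.53%). The part of those in the values of these genes was not tested.

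Genes that act with serpins were read from 3 lists. Over all genes tested, 48.5% had a negative fold change and 1.39% passed, 0.449% as higher and 0.937% as lower. Of 32 proteases that serpins inhibit, 28 were tested, 22 had a negative fold change and 1 passed, as lower. The median log2 fold change was -0.41. The gene that passed was Klkb1, plasma prekallikrein, a target of C1 inhibitor, with 64.7, 116 and 111 CPM in WT and 14.6, 19.9 and 22.4 CPM in IRF8-cKO. Its groups were far apart (log2FC -2.36, SE 0.32, adjusted p = 0.0243, edgeR). The other 3 named by lowest p were Plau, the uPA gene, at -1.45 (adjusted p = 0.117), Plat, the tPA gene, at -2.71 (0.129) and Proc, protein C, at -0.89 (0.132). Plat had 19.7, 31.7 and 21.5 CPM in WT and 0.247, 9.01 and 1.95 CPM in IRF8-cKO. Without IRF8-cKO-88 it passed at -4.40 (adjusted p = 0.00956), in a fit where 1205 of 13652 genes passed. Elane and Ctsg, the neutrophil proteases that several serpins target, had too few reads to test.

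Of 33 protease inhibitors outside the serpin family, 26 were tested. Of these, 17 had a negative fold change (48.5% of all genes) and 3 passed, all as lower (0.937% of all genes). The median was -0.21. Slpi, a secreted inhibitor of neutrophil elastase, had 83.1, 38.9 and 40.1 CPM in WT and 2.77, 6.97 and 2.50 CPM in IRF8-cKO (log2FC -3.73, adjusted p = 0.0243, edgeR), and its log2FC was -4.35 without IRF8-cKO-88. Timp1, an inhibitor of matrix metalloproteinases, was at -2.27 (adjusted p = 0.0339) and Wfdc2, of the same domain family as Slpi, at -2.18 (adjusted p = 0.0408). Spint1, which inhibits hepatocyte growth factor activator, was at -1.38 (adjusted p = 0.133). The neutrophil and cholangiocyte marker sums given above, the latter mostly Spp1, were lower in IRF8-cKO as well. Their part in these values was not tested.

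Of 28 partners, carriers and receptors of serpins, 27 were tested. Of these, 12 had a positive and 15 a negative fold change (48.5% of all genes), and 1 passed (1.39% of all genes). The median was -0.13. Sel1l, an adaptor in the degradation of misfolded secretory proteins such as mutant antitrypsin, had 48.5, 50.5 and 49.8 CPM in WT and 295, 329 and 94.7 CPM in IRF8-cKO (log2FC 2.27, adjusted p = 0.0446, edgeR). Plaur, the uPA receptor, was at -2.60 (adjusted p = 0.0513). It passed without IRF8-cKO-88 at -3.28 (adjusted p = 0.00595) and without IRF8-cKO-71 at -2.19 (0.0419). In those fits 1205 of 13652 genes and 143 of 13563 genes passed. Lrp1, which clears serpin and protease complexes, was at 1.28 (0.0796), and Mcfd2, a cargo receptor subunit for secretion, was at 1.36 (0.0824). Both passed without IRF8-cKO-88, at adjusted p of 0.0371 and 0.0466. Of the 5 genes that passed in the 3 lists, none passed without WT-44 or without WT-77, where the adjusted p ran from 0.143 to 0.191 and from 0.152 to 0.201. Without IRF8-cKO-106 the same held for Klkb1 (adjusted p = 0.0555), Slpi (0.0555), Timp1 (0.0732) and Wfdc2 (0.0950). Without WT-14 it held for Timp1 (0.0506) and Sel1l (0.0762), and without IRF8-cKO-71 for Wfdc2 (0.0504) and Sel1l (0.0544). In all, 1 gene passed without WT-44, 0 without WT-77 and 20 without IRF8-cKO-106. The fits without WT-14 and without IRF8-cKO-71 passed 139 and 143 genes. Loss of a call where few genes passed is not particular to these genes.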

How the data were processed

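The 6 libraries hold RNA from mouse liver, 3 IRF8-cKO and 3 WT. The authors deposited raw read counts per gene. Tools in the submitters' processing notes are HISAT2 2.0.5 and featureCounts 1.5.0-p3, with the mm10 build. Per the labels' protocols, the libraries were made with an NEBNext Ultra RNA kit. Not given in the sources used here are the strand setting, the annotation release and how reads with several matches were handled, so reads of near-identical copies and of antisense genes may be split or shared. Columns were tied to samples by name, and the groups follow the sample titles.

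Genes were kept by edgeR's filterByExpr (minimum count 10, minimum total 15), which left 13134. The fit was edgeR 4.0.16 (R 4.3.3) with TMM scaling and the robust two-sided quasi-likelihood test, Benjamini-Hochberg adjusted over all genes tested, with a threshold of 0.05. CPM are TMM-scaled, and SE is the absolute fold change over the square root of F. On simulated counts for the 13134 genes, in which 200 were altered, the test recovered 60% of the 4-fold and 4% of the 2-fold changes, with 7 false calls among 71, so 2-fold differences mostly escape a test of this size.

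The members and gene lists were chosen with earlier results of these data known. Every member tested is described, except 1 that is not reported here; from each list of related genes, the 4 with the lowest p are named. Alternatives were other scalings, filters, DESeq2 1.42.0, limma-voom (limma 3.58.1), no robust shrinkage, removal of the 10 most abundant genes, and each library left out. Transcript windows and loops came from GENCODE M21 and promoters from RefSeq (GRCm38.p6). The coordinates of 60 members looked up in GENCODE M21 were equal in all 60.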

Additional observations from a re-analysis of the deposited data

How the results depend on the processing

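With all 6 libraries, 182 genes passed (59 higher, 123 lower), 1 of them a serpin. Scaling by library totals gave 82 (39 and 43) and 0 serpins, with a median log2 fold change over all genes of 0.25 in place of 0.03, so that higher calls were 47.6% in place of 32.4%. The serpin median was then -0.36 in place of -0.53. With no filter on low counts 1723 of 24095 genes passed (817 and 906), 47.4% of them higher. Of the 46 serpins tested there, 8 passed: Serpina10, Serpina12, Serpina1c, Serpina3c, Serpina3n, Serpina6, Serpinb1a and Serpind1. DESeq2 called 1423 of 13134 genes (613 and 810), 43.1% higher, and 5 of 31 serpins: Serpina10, Serpina1c, Serpina6, Serpinb1a and Serpind1. Limma-voom called 111 (23 and 88), 20.7% higher. Serpina6 kept its call under median-of-ratios and upper-quartile scaling, under a filter of 1 CPM in 3 libraries, without robust shrinkage and without the 10 most abundant genes.

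With 1 library left out in turn, the number of genes that passed ran from 0 (without WT-77, where 1988 genes had an unadjusted p under 0.05) to 1205 (without IRF8-cKO-88), from 0 to 575 higher and from 0 to 630 lower, and that of serpins from 0 to 3. Without WT-14 it was 139, without WT-44 it was 1, without IRF8-cKO-71 it was 143 and without IRF8-cKO-106 it was 20. Among the members reported, the log2 fold change took both signs for Serpinf2 (-0.091 to 0.57), Serpina7 (-0.48 to 2.02), Serpinb8 (-0.78 to 0.22), Serping1 (-0.17 to 0.41) and Serpinh1 (-0.13 to 0.28). Limma-voom also turned Serpinh1, to -0.038. The causes were not tested. No member reported changed sign under another scaling or filter. Counting limits the scarcest members most, since Serpinb1a rests on at most 30 reads per library. No paired analysis was possible because no library number occurs in both groups.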

Other observations

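Some serpin-related genes lie outside the naming rule. Agt, which encodes angiotensinogen, a serpin that serves as a hormone precursor and not as an inhibitor, measured 1474, 3725 and 2816 CPM in WT and 1111, 2428 and 424 CPM in IRF8-cKO. The groups overlapped (log2 fold change -1.02, adjusted p = 0.317, edgeR). Serpina4-ps1 and Serpina3h are annotated as pseudogenes. Serpina4-ps1 had a log2 fold change of -1.09 (adjusted p = 0.164), and Serpina3h one of -1.14 (adjusted p = 0.287).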
